A study of Mus musculus with 9 samples.

Results

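Reads of 10 genes of the BCL2 family were followed in rat penile tissue after injury of the major pelvic ganglia, with and without a cell transplant. The genes are Bcl2, Bcl2l1, Mcl1, Bax, Bak1, Bad, Bid, Bcl2l11, Pmaip1 and Bbc3. They were picked by symbol from the 21124 gene rows of the deposited tables. Each symbol stood on 1 row, and all 10 genes passed the filter on low counts. After injury of these ganglia, the Sacral NC group received sacral neural crest cells, which the series title derives from human pluripotent stem cells. The Injury group had both ganglia clamped and no cells named in the labels. The Sham group had the surgery without ganglion injury. Each group has 3 libraries, made from penile tissue 4 weeks later, and the labels give no strain, age or mock transplant.

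The BCL2 family decides whether the outer membrane of the mitochondrion stays closed. Its guardian proteins (Bcl2, Bcl-xL from Bcl2l1, and Mcl1) hold in check the effectors Bax and Bak, which form pores and release cytochrome c to start the caspase cascade. The BH3-only proteins (Bim from Bcl2l11, Bid, Puma from Bbc3, Noxa from Pmaip1, and Bad) carry the death signal by binding guardians or by activating effectors. Much of this control acts on the proteins, which RNA counts do not measure. In the corpus cavernosum, loss of smooth muscle and endothelial cells by apoptosis is a known consequence of cavernous nerve injury.

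Total counts ran from 15442190 to 18283418 per library. Mouse is given as the organism, while the titles name rats and all 21124 identifiers are rat identifiers, so the tables were read as rat. The cell type field names pluripotent stem cells. Of the pluripotency genes, picked after the data were seen, Pou5f1 and Lin28a reached only 2 and 4 reads in their highest library. Nanog had no row. All 10 smooth muscle markers and all 16 endothelial markers with a row were tested, as were 15509 of the 21124 gene rows. Skeletal muscle genes took between 0.224 % and 2.92 % of reads in Sacral NC 2, Injury 1, Injury 2 and Sham 1, and at most 0.0112 % in the other 5 libraries. Collagen genes took 2.15 % to 5.20 % of reads in Sacral NC, 15.1 % to 18.6 % in Injury and 3.77 % to 4.52 % in Sham. The labels do not say that each library is a separate animal, so p-values measure the spread between libraries. Levels are read counts scaled by the trimmed mean of M values (TMM), and are compared within a gene only, since no gene lengths were used.

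Of the members, the messages of Noxa and Bim passed the test. Pmaip1 rose 2.71-fold and Bcl2l11 rose 1.99-fold in Sacral NC against Injury, and the other 8 members did not pass (2 of 10 called, both higher). Over all 15509 tested genes, 6.96 % were called in this comparison and 3.26 % were called higher. A gene was called at an adjusted p under 0.05 by the edgeR quasi-likelihood test. In Injury against Sham, 0 of 10 members were called by edgeR, where 4.43 % of all tested genes were. In that comparison 4 of 10 had an unadjusted p under 0.05, against 21.9 % of all tested genes, and Sacral NC against Injury likewise had 4 of 10, against 26.6 %. For Injury against Sham, DESeq2 called 1 member, Pmaip1. In Sacral NC against Sham, 0 of 10 members were called by edgeR or by DESeq2, 0 had an unadjusted p under 0.05 (7.94 % of all tested genes), and edgeR called 0 % of all tested genes. The 3 comparisons share libraries pairwise, so they are not independent of each other.

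The groups did not overlap in 6 of 10 members for Sacral NC against Injury, where 26.4 % of all tested genes did not overlap. They did not overlap in 4 of 10 members for Injury against Sham (35.3 % of all tested genes) and in 0 of 10 for Sacral NC against Sham (13.3 %). The median log2 change of the 10 members was 0.17 in Sacral NC against Injury (0.03 over all tested genes), −0.03 in Injury against Sham (−0.04) and 0.02 in Sacral NC against Sham (0.003). Members lay on both sides of 0 in each comparison, as the plot of each gene by library shows.

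**Figure D1:**
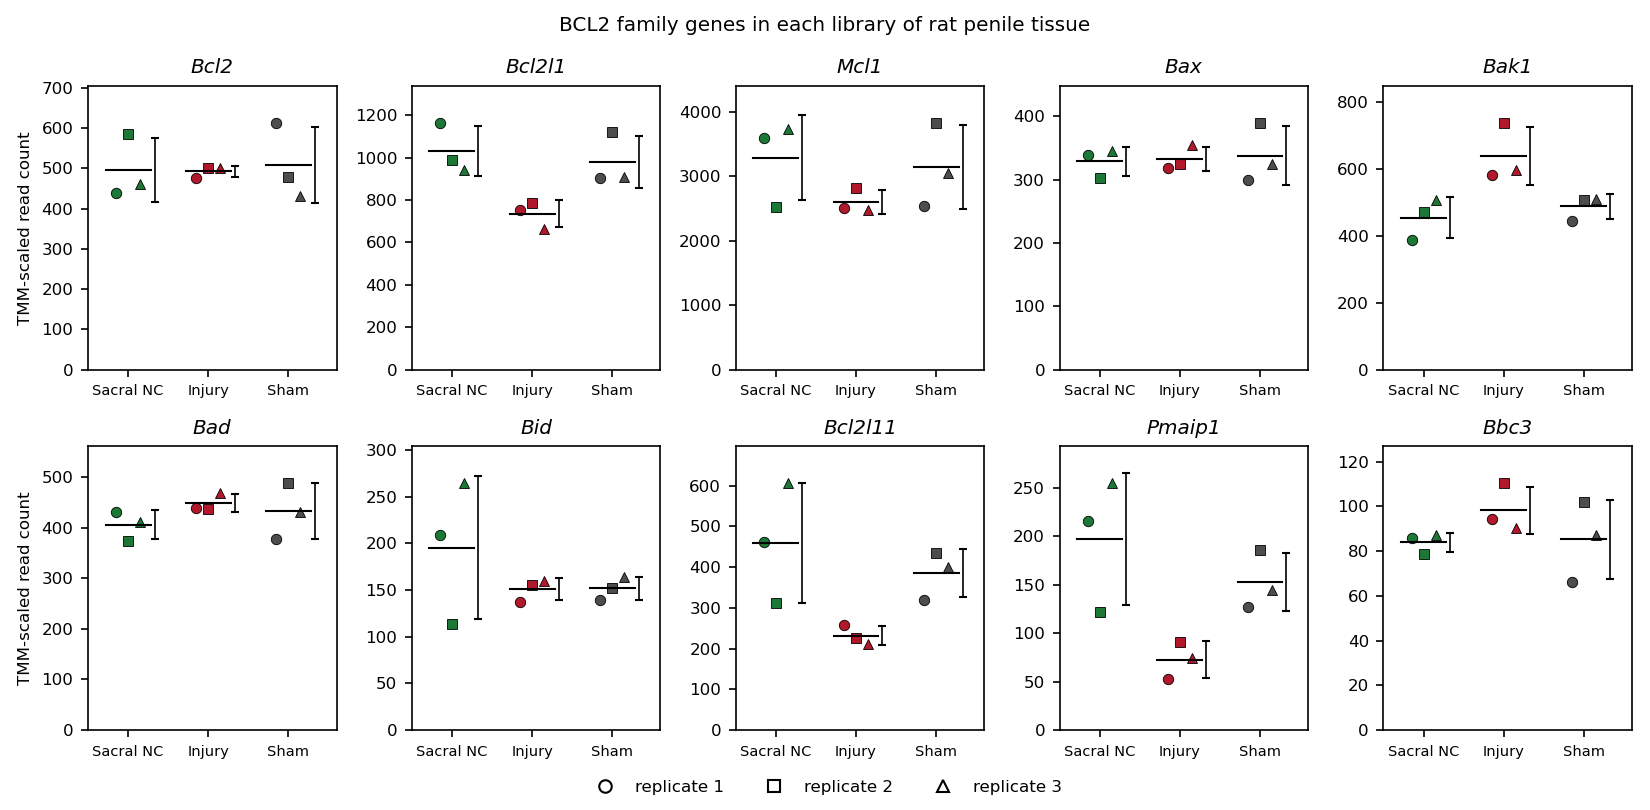
TMM-scaled read counts of the 10 BCL2 family genes (vertical axes, from 0) in the Sacral NC, Injury and Sham libraries of rat penile tissue. Points are libraries, horizontal lines are means and bars are SD over 3 libraries. Pmaip1 and Bcl2l11 lie lowest in the 3 Injury libraries, and Bak1 lies highest there.

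Among the BH3-only genes, Pmaip1 (ENSRNOG00000018770, chromosome 18, 59986017 to 59992429) had the largest change. Its product Noxa neutralises Mcl1. Pmaip1 had 215, 122 and 255 scaled counts in Sacral NC 1 to 3, 53.1, 90.8 and 74.3 in Injury 1 to 3, and 127, 186 and 145 in Sham 1 to 3. Every Injury library lay below every library of the other groups, and Sacral NC 2 lay below all 3 Sham libraries. The values rest on 121 to 246 reads per library in Sacral NC, 49 to 79 in Injury and 142 to 203 in Sham. Its log2 change in Sacral NC against Injury was 1.44 ± 0.31 (SE, adjusted p = 0.0332 by edgeR; 95 % interval of the fold 1.65 to 4.46). In Injury against Sham it was −1.07 ± 0.31 (adjusted p = 0.0945), which did not pass. In Sacral NC against Sham it was 0.37 ± 0.30, with a fold between 0.799 and 2.09 at 95 %.

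Bcl2l11 (ENSRNOG00000016551, chromosome 3, 115366646 to 115404068) encodes Bim, which binds all the guardians and can activate Bax and Bak directly. It had 463, 311 and 606 scaled counts in Sacral NC 1 to 3, 257, 226 and 211 in Injury 1 to 3, and 320.3, 435 and 401 in Sham 1 to 3. All Injury libraries again lay below the rest, and the lowest Sacral NC library was again replicate 2. The log2 change in Sacral NC against Injury was 0.99 ± 0.23 (SE, adjusted p = 0.0408 by edgeR; 95 % interval of the fold 1.38 to 2.87). In Injury against Sham it was −0.74 ± 0.23 (adjusted p = 0.112) and in Sacral NC against Sham 0.26 ± 0.23, and neither passed.

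Both calls rest on few libraries. Pmaip1 and Bcl2l11 stayed above 0 in Sacral NC against Injury in all 18 alternative settings, with log2 changes of 1.18 to 1.69 and 0.71 to 1.29. Over the settings, the adjusted p ran from 5.71e-04 to 0.107 for Pmaip1 and from 0.00277 to 0.134 for Bcl2l11, and edgeR or DESeq2 called Pmaip1 in 7 and Bcl2l11 in 6 of the 18. With Sacral NC 2 left out, 4 members were called higher, Bcl2l1 and Bid besides these. With Sham 2 left out 1 was called, Pmaip1. In Injury against Sham, leaving out Sacral NC 2 gave 2 calls, Pmaip1 and Bcl2l11, both lower (adjusted p = 0.0357 and 0.0324 by edgeR). For Sacral NC against Injury, 0 members were called with any 1 of the other 7 libraries left out. Those libraries were Sacral NC 1 and 3, Injury 1, 2 and 3, and Sham 1 and 3. The count was also 0 without the 4 muscle-rich libraries, which leaves 1 Injury library, and 0 with a skeletal muscle score in the fit. In the authors' deposited table of Sacral NC against Injury, the adjusted p was 5.42e-04 for Pmaip1 and 0.00264 for Bcl2l11. In their table of Sham against Injury it was 0.0250 for Pmaip1, which was higher in Sham, and 0.0600 for Bcl2l11. No member besides Pmaip1 was under 0.05 there.

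The other BH3-only genes did not pass in any comparison. Bid (ENSRNOG00000012439, chromosome 4, 154113198 to 154134720) links death receptors to mitochondria once caspase-8 has cut its protein. It had 208, 113 and 264 scaled counts in Sacral NC 1 to 3, 138, 155 and 159.8 in Injury 1 to 3, and 139, 152 and 164 in Sham 1 to 3. Sacral NC held both the lowest and the highest library of this gene. Its log2 change was 0.37 ± 0.27 in Sacral NC against Injury (SE, adjusted p = 0.408 by edgeR), and 0.65 with an adjusted p of 0.0257 without Sacral NC 2.

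Bbc3 (ENSRNOG00000062473, chromosome 1, 77014543 to 77022509) encodes Puma, a classic p53 target, and had the fewest reads of the 10 genes summed over libraries, 74 to 111 per library. It had 85.8, 78.9 and 87.0 scaled counts in Sacral NC, 94.3, 110.4 and 90.6 in Injury, and 66.4, 102 and 87.4 in Sham. The Sacral NC libraries lay just below those of Injury, and Sham overlapped both. The log2 change was −0.23 ± 0.20 in Sacral NC against Injury and 0.21 ± 0.20 in Injury against Sham (SE).

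Bad (ENSRNOG00000021147, chromosome 1, 204131501 to 204142823) binds Bcl-xL unless survival kinases phosphorylate it. It had 431, 374 and 410.2 scaled counts in Sacral NC, 439, 437 and 469 in Injury, and 377, 487 and 432 in Sham. The Sacral NC libraries lay below all Injury libraries, and Sham overlapped both. Its 95 % interval of the fold was 0.756 to 1.08 in Sacral NC against Injury and 0.869 to 1.24 in Injury against Sham. Bad overlaps the opposite-strand gene Gpr137 by 1582 bases, and Gpr137 had 63 to 113 reads per library.

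The guardian genes did not pass in any comparison by edgeR. Bcl2l1 (ENSRNOG00000007946, chromosome 3, 141253523 to 141303479) encodes Bcl-xL. It had 1163, 990.1 and 942 scaled counts in Sacral NC 1 to 3, 755, 787 and 664 in Injury 1 to 3, and 905, 1120 and 908 in Sham 1 to 3. Injury lay below both other groups with no overlap. The log2 change was 0.49 ± 0.12 in Sacral NC against Injury (SE, adjusted p = 0.0513 by edgeR) and −0.41 ± 0.12 in Injury against Sham (adjusted p = 0.101). For Sacral NC against Injury, DESeq2 gave an adjusted p of 0.0138, and it was 0.0132 in the authors' deposited table. Sacral NC against Sham had a log2 change of 0.08 ± 0.12, with a fold between 0.869 and 1.28 at 95 %.

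Mcl1 (ENSRNOG00000063678, chromosome 2, 183219220 to 183222303) encodes a short-lived guardian and had the most reads of the 10 genes, 2312 to 4166 per library. It had 3592, 2525 and 3735 scaled counts in Sacral NC 1 to 3, 2505, 2813 and 2469.9 in Injury 1 to 3, and 2536, 3824 and 3055 in Sham 1 to 3. The lowest Sacral NC library and the lowest Sham library fell inside the range of Injury. The log2 change was 0.34 ± 0.19 in Sacral NC against Injury and −0.27 ± 0.19 in Injury against Sham (SE, adjusted p = 0.279 and 0.42 by edgeR).

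Bcl2 itself (ENSRNOG00000067693, chromosome 13, 22684989 to 22853743) showed no detectable difference. It had 439.8, 587 and 461 scaled counts in Sacral NC, 476, 500.1 and 502 in Injury, and 613, 479 and 433 in Sham. The means were 496 ± 79.3 in Sacral NC, 492 ± 14.6 in Injury and 508 ± 93.5 in Sham (SD, n = 3 each). The 95 % interval of the fold was 0.79 to 1.28 in Sacral NC against Injury, 0.76 to 1.24 in Injury against Sham and 0.766 to 1.24 in Sacral NC against Sham. Its highest libraries, Sham 1 and Sacral NC 2, are both rich in skeletal muscle reads. Injury 2, the richest at 2.92 % of reads, and Injury 1, also rich in them, had 500.1 and 476 scaled counts. The part of skeletal muscle in the Bcl2 levels was not tested.

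The effectors Bax and Bak1 did not pass in any comparison by edgeR. Bax (ENSRNOG00000020876, chromosome 1, 95938808 to 95945368) had 338, 302 and 345 scaled counts in Sacral NC, 319, 324 and 354 in Injury, and 299.6, 389 and 324 in Sham. All 3 groups overlapped. Its 95 % interval of the fold was 0.816 to 1.20 in Sacral NC against Injury, 0.813 to 1.19 in Injury against Sham and 0.804 to 1.18 in Sacral NC against Sham. Bax shares 918 bases on the same strand with the ferritin light chain gene Ftl1, which had 5328 to 16713 reads per library, so its count is uncertain.

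Bak1 (ENSRNOG00000000485, chromosome 20, 5100480 to 5109264) had 387, 471 and 508 scaled counts in Sacral NC 1 to 3, 582, 738 and 597 in Injury 1 to 3, and 446, 508 and 512 in Sham 1 to 3. Each Injury library lay above every library of both other groups. The log2 change was −0.49 ± 0.14 in Sacral NC against Injury (SE, adjusted p = 0.0684 by edgeR) and 0.39 ± 0.14 in Injury against Sham (adjusted p = 0.145). DESeq2 gave an adjusted p of 0.0223 in Sacral NC against Injury, and it was 0.0214 in the authors' deposited table. Bak1 lies across the opposite-strand gene Ggnbp1 for 8785 bases, which had 18 to 44 reads per library, and Bcl2l1 across the pseudogene LOC108350502 with 5 to 35 reads.

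**Figure D2:**
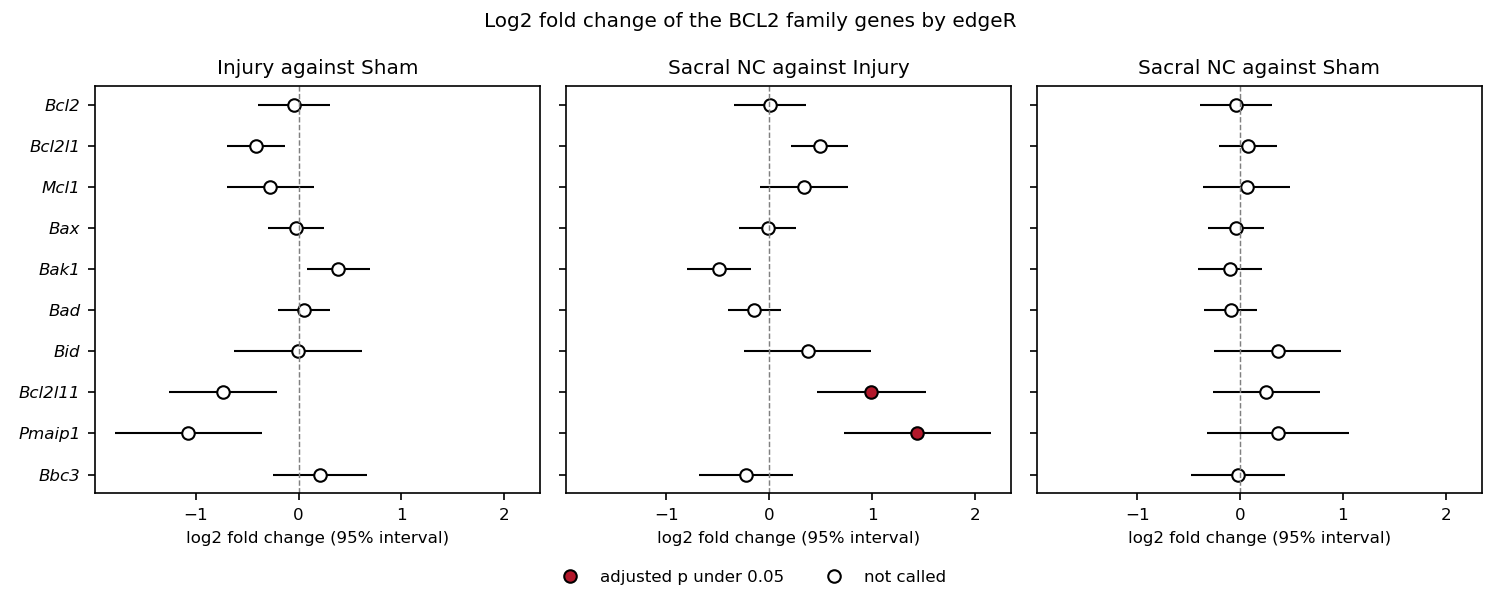
Log2 fold change of the 10 BCL2 family genes (horizontal axis) in each of 3 comparisons, with 95 % intervals as lines and filled points at an adjusted p under 0.05 by edgeR. Pmaip1 and Bcl2l11 are filled in Sacral NC against Injury, at 1.44 and 0.99, and no point is filled in the other comparisons.

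Ordered by group mean, Injury was lowest for Bcl2, Bcl2l1, Mcl1, Bid, Bcl2l11 and Pmaip1 and highest for Bak1, Bad and Bbc3, and for Bax it lay between Sacral NC and Sham. The Injury libraries lay apart from those of both other groups for Bcl2l1, Bcl2l11, Pmaip1 and Bak1. For Bcl2, Mcl1, Bid, Bax, Bad and Bbc3 they overlapped at least 1 of the other groups. Over all tested genes, 35.3 % did not overlap in Injury against Sham and 26.4 % in Sacral NC against Injury. The share apart in both comparisons at once was not computed, so this count is not read as a result about the family. Bid averaged 195 ± 76.3 scaled counts in Sacral NC, 151 ± 11.7 in Injury and 152 ± 12.3 in Sham (SD, n = 3 each). Sacral NC was above Sham for Pmaip1, 198 ± 68.0 against 153 ± 30.3, and for Bcl2l11, 460.1 ± 147 against 385 ± 58.9. Their libraries overlapped for both genes, and neither gene was called by edgeR. The 95 % interval of the fold was 0.799 to 2.09 for Pmaip1 and 0.833 to 1.71 for Bcl2l11. A difference between Sacral NC and Sham within these intervals is therefore not excluded. Spread within Sacral NC was wide for 3 BH3-only genes. The SD was 39.1 % of the mean for Bid, 34.4 % for Pmaip1 and 32.0 % for Bcl2l11 in Sacral NC, against 7.76 %, 26.0 % and 10.1 % in Injury.

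The ratio of Bax to Bcl2 reads is often given as a measure of readiness for apoptosis. A ratio within a library does not depend on the scaling. The log2 ratio was −0.38, −0.96 and −0.42 in Sacral NC 1 to 3, −0.58, −0.63 and −0.50 in Injury 1 to 3, and −1.03, −0.30 and −0.42 in Sham 1 to 3. The group means were −0.58 ± 0.32 in Sacral NC, −0.57 ± 0.06 in Injury and −0.58 ± 0.39 in Sham (SD, n = 3 each), and the Injury values lay inside the range of both other groups. The ratio of Bak1 to Bcl2l1, a pair picked after its values were seen, separated Injury from both other groups, which overlapped. Its log2 value was −1.59, −1.07 and −0.89 in Sacral NC 1 to 3, −0.38, −0.09 and −0.15 in Injury 1 to 3, and −1.02, −1.14 and −0.83 in Sham 1 to 3. All Injury libraries lay above all others, and no test was made of it. This was fixed by the levels above, with every Injury library highest for Bak1 and lowest for Bcl2l1, so it is no further result. The log2 ratio of Bcl2l1 to Bcl2l11, a guardian over a BH3-only gene and a pair not planned in advance, was higher in Injury than in Sham. It was 1.56, 1.80 and 1.66 in Injury 1 to 3 and 1.50, 1.36 and 1.18 in Sham 1 to 3. Sacral NC 1 to 3 had 1.33, 1.67 and 0.64, which overlapped both. This ratio was not tested either. It is built from genes whose Injury libraries already lay apart above, so it is no further result.

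**Figure D3:**
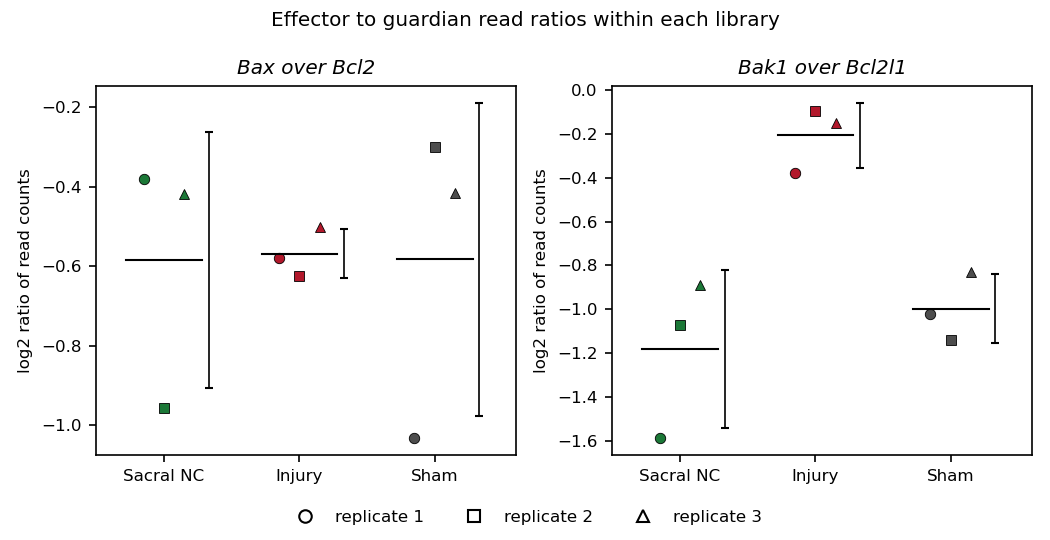
Log2 ratio of raw reads of an effector gene over a guardian gene within each library (vertical axis), for Bax over Bcl2 and Bak1 over Bcl2l1, in Sacral NC, Injury and Sham. Lines are means and bars SD over 3 libraries. The Bax to Bcl2 means are −0.58, −0.57 and −0.58, while Bak1 to Bcl2l1 is highest in Injury at −0.21.

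The genes whose log2 level followed Pmaip1 most closely over the 9 libraries, out of 12797 compared, were Wscd1 (r = 0.99), Adgrg3 (r = 0.98) and Slfn2 (r = 0.98). Slfn2 averaged 1410.0 scaled counts in Sacral NC, 469.9 in Injury and 1030.0 in Sham. For Bcl2l11 they were Klhl5 (r = 0.98), Apoe (r = 0.98) and Sp100 (r = 0.98). Apoe averaged 28389 scaled counts in Sacral NC, 7326 in Injury and 18611 in Sham. Pmaip1 and Bcl2l11 followed each other with r = 0.92, the highest of the 45 pairs of members. These correlations describe 9 libraries of 3 groups that share group differences, and carry no test.

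Marker lists of other cells differed between the libraries too. The 11 macrophage and myeloid markers summed to 1052, 247 and 1845 CPM (TMM-scaled reads per 1000000 reads) in Sacral NC 1 to 3, 254, 321 and 425 in Injury 1 to 3, and 494 to 847 in Sham. Sacral NC 2 was the lowest of the 9 libraries for these markers. It was also the lowest Sacral NC library for Pmaip1, Bcl2l11, Mcl1, Bid, Bax, Bad and Bbc3, but not for Bcl2, Bcl2l1 and Bak1. Of the 11 markers 0 were called in any comparison by edgeR, with a median log2 change of 1.82 in Sacral NC against Injury and −1.05 in Injury against Sham. The 16 endothelial markers summed to 1691 to 2364 CPM in Sacral NC, 1076 to 1262 in Injury and 1839 to 1974 in Sham. Of these, 9 were higher in Sacral NC against Injury (3.26 % of all tested genes) and 9 lower in Injury against Sham (1.34 %). The 10 fibroblast markers summed to 29398 to 47168 CPM in Sacral NC, 142805 to 191839 in Injury and 37178 to 40854 in Sham. This sum includes the collagen genes Col1a1, Col1a2 and Col3a1. These and Thy1 were lower in Sacral NC against Injury (3.7 % of all tested genes) and higher in Injury against Sham (3.09 %). The other 6 were not called. The list median of the log2 change was 0.10 in both comparisons. Without overlap, 4 markers were higher and 2 lower in Injury against Sham, where 35.3 % of all tested genes did not overlap. In Sacral NC against Injury, 1 was higher and 4 lower without overlap (26.4 % of all tested genes). The 7 neutrophil markers summed to 0.793 to 6.68 CPM in Sacral NC, 1.04 to 1.57 in Injury and 4.54 to 18.8 in Sham. Of the 4 tested, 3 were lower in Injury against Sham (1.34 % of all tested genes). In Sacral NC against Injury 0 of the 4 were called (6.96 % of all tested genes). Schwann cell markers summed to 1929 to 2932 CPM in Sacral NC, 2933 to 5892 in Injury and 3082 to 4315 in Sham. Of these, 1 of 8 was called, lower in Sacral NC against Injury (3.7 % of all tested genes). Of 6 tested epithelial markers, 1 was lower in Sacral NC against Injury (3.7 %) and 1 higher in Injury against Sham (3.09 %). Such single calls are not read as results about these lists. None of the 10 smooth muscle or 16 tested skeletal muscle markers was called in any comparison by edgeR. The 9 lymphocyte markers with a row summed to at most 8.74 CPM in any library. The part of these cell types in the Pmaip1 and Bcl2l11 results was not tested, and fewer cells of a type and less RNA per cell cannot be told apart in bulk tissue.

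**Figure D4:**
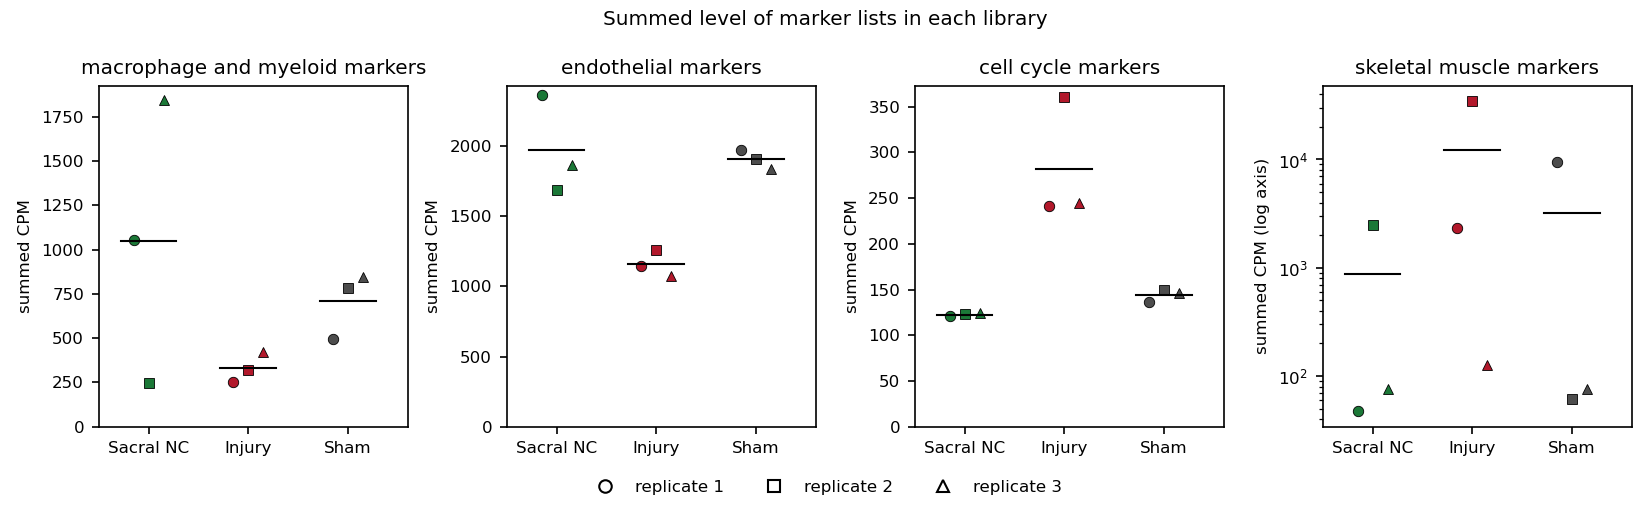
Summed TMM-scaled CPM of 4 marker lists in each library of Sacral NC, Injury and Sham, with lines at the group means. The skeletal muscle axis is logarithmic and the other axes start at 0. Macrophage and myeloid markers range from 247 to 1845 CPM within Sacral NC, and endothelial markers are lowest in Injury at 1076 to 1262 CPM.

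Further family members were examined as a list of 12, of which 8 were tested. In this list 0 were called in any comparison by edgeR. Bcl2a1, a guardian of blood cells, had 197, 47.5 and 494 scaled counts in Sacral NC 1 to 3, 43.3, 87.4 and 59.0 in Injury, and 61.0, 97.3 and 87.4 in Sham. Sacral NC 2 was within the range of Injury and the other Sacral NC libraries were above it (log2 change 1.96 ± 0.70, SE, adjusted p = 0.124 by edgeR). Bik, a BH3-only gene, had a log2 change of 0.86 ± 0.33 in Sacral NC against Injury and −0.79 ± 0.33 in Injury against Sham (SE), without a call. Bcl2l14 had 92.1 ± 49.7 scaled counts in Sacral NC, 44.6 ± 13.3 in Injury and 131 ± 38.8 in Sham (SD, n = 3 each; Injury against Sham adjusted p = 0.0761 by edgeR). Bok averaged 350.5 ± 59.9 scaled counts in Sacral NC and 270.0 ± 65.2 in Sham (SD, n = 3 each), with a log2 change of 0.38 ± 0.22 (SE) and no call.

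Downstream of the mitochondria, 0 of 6 tested apoptosome and release genes were called in any comparison by edgeR. Apaf1, the scaffold of the apoptosome, had 521 ± 82.2 scaled counts in Sacral NC, 645 ± 55.6 in Injury and 487 ± 21.5 in Sham (SD, n = 3 each; adjusted p = 0.158 for Sacral NC against Injury and 0.106 for Injury against Sham by edgeR). Diablo, whose product relieves caspase inhibition, had log2 changes of 0.45 ± 0.20 and −0.35 ± 0.20 in the same comparisons (SE). Aifm1, a mitochondrial flavoprotein gene, had 384 ± 25.9 scaled counts in Sacral NC and 482 ± 23.3 in Sham (SD, n = 3 each), with no overlap and an adjusted p of 0.606 by edgeR.

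Of 7 tested caspases, 2 were higher in Sacral NC against Injury and 2 were lower in Injury against Sham. Over all tested genes, 3.26 % were called higher in the first and 1.34 % lower in the second. In both comparisons these were Casp1 and Casp12, which belong to the inflammatory caspases and not to the executioners that the BCL2 family controls. Casp1 had 615, 345 and 505.5 scaled counts in Sacral NC 1 to 3, 185, 213 and 179 in Injury 1 to 3, and 339, 592 and 459.8 in Sham 1 to 3. Casp1 rose 2.54-fold in Sacral NC against Injury (adjusted p = 0.0211) and fell to 0.415 of Sham in Injury (adjusted p = 0.0306, both by edgeR). Casp12 rose 2.05-fold and fell to 0.65 in the same comparisons (adjusted p = 0.0071 and 0.038). Of the 7 caspases, edgeR called 0 in Sacral NC against Sham.

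Among 7 tested caspase inhibitors, Birc5 alone was called, lower in Sacral NC against Injury, where 3.7 % of all tested genes were called lower. Birc5 encodes survivin, which also serves in mitosis. It had 18.0, 19.2 and 6.2 scaled counts in Sacral NC, 58.5, 72.4 and 57.0 in Injury, and 26.9, 22.9 and 18.8 in Sham, and fell to 0.233 of Injury (adjusted p = 0.0202 by edgeR). Of 16 cell cycle markers, 13 were lower in Sacral NC against Injury and 10 were higher in Injury against Sham (3.09 % of all tested genes), with sums of 121 to 124 CPM in Sacral NC, 241 to 361 in Injury and 136 to 149 in Sham. The part of dividing cells in the Birc5 result was not tested.

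In the death receptor arm, 1 of 11 tested genes was called, Tnfsf10 in Sacral NC against Injury. This share is near the 6.96 % called over all tested genes, so the count is not a result about the arm. Tnfsf10 encodes the death ligand TRAIL. It had 534, 325 and 599 scaled counts in Sacral NC 1 to 3, 249, 179 and 200.5 in Injury 1 to 3, and 341, 338 and 328 in Sham 1 to 3, a rise of 2.32-fold over Injury (adjusted p = 0.0197 by edgeR). Its level in Injury was 0.625 of Sham, without a call. Tnfrsf10b, a TRAIL receptor gene, had 119.6 ± 13.3 scaled counts in Sacral NC and 191 ± 44.2 in Sham (SD, n = 3 each), with no overlap and an adjusted p of 0.578 by edgeR.

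Of 17 tested genes of p53 and its targets, 0 were called in any comparison by edgeR, with list medians of −0.05 in both Sacral NC against Injury and Injury against Sham. The antiproliferative gene Btg2 had 3340 ± 1318 scaled counts in Sacral NC and 1498 ± 302 in Injury (SD, n = 3 each; adjusted p = 0.0848 by edgeR). Among 15 genes that regulate members, 1 was called in Sacral NC against Injury, a share close to the 6.96 % over all tested genes. It was E2f1, a transcription factor of the cell cycle, which fell to 0.635 of Injury in Sacral NC (adjusted p = 0.037 by edgeR). Foxo1, which can induce Bcl2l11, had 518 ± 128 scaled counts in Sacral NC, 359 ± 20.2 in Injury and 553 ± 11.5 in Sham (SD, n = 3 each; Injury against Sham adjusted p = 0.0756 by edgeR). Stat3, which can induce Mcl1 and Bcl2l1, had a log2 change of −0.38 ± 0.09 in Injury against Sham (SE, adjusted p = 0.0629 by edgeR), with no overlap. Of 10 BNIP3, channel and BAG genes, 0 were called in any comparison by edgeR. Bag3, a co-chaperone gene, had log2 changes of 0.40 ± 0.14 in Sacral NC against Injury and −0.37 ± 0.14 in Injury against Sham (SE).

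The calls in these lists differed in how far they rested on single libraries. In Sacral NC against Injury, Casp12 was called in 9 of 9 fits that left out 1 library, Birc5 and Tnfsf10 in 5, Casp1 in 4 and E2f1 in 1. Leaving out Sacral NC 1, Injury 2 or Injury 3 ended the calls of Casp1, Birc5, Tnfsf10 and E2f1, as did Injury 1 for all of these but Tnfsf10 and Sacral NC 3 for all but Birc5. Of these 9 fits, the one without Sacral NC 2 was the single one that called E2f1. In Injury against Sham, Casp1 was called in 4 and Casp12 in 3 of the 9, and each Injury library as well as Sham 2 and Sham 3 ended both calls when left out (Casp12 also with Sham 1). Over all 18 settings the highest adjusted p by edgeR or DESeq2 was 0.0841 for Casp1, 0.0811 for Casp12, 0.121 for Birc5, 0.0784 for Tnfsf10 and 0.154 for E2f1 in Sacral NC against Injury, and 0.135 for Casp1 and 0.294 for Casp12 in Injury against Sham. The direction was the same in each of the 18 for all of these genes.

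**Figure D5:**
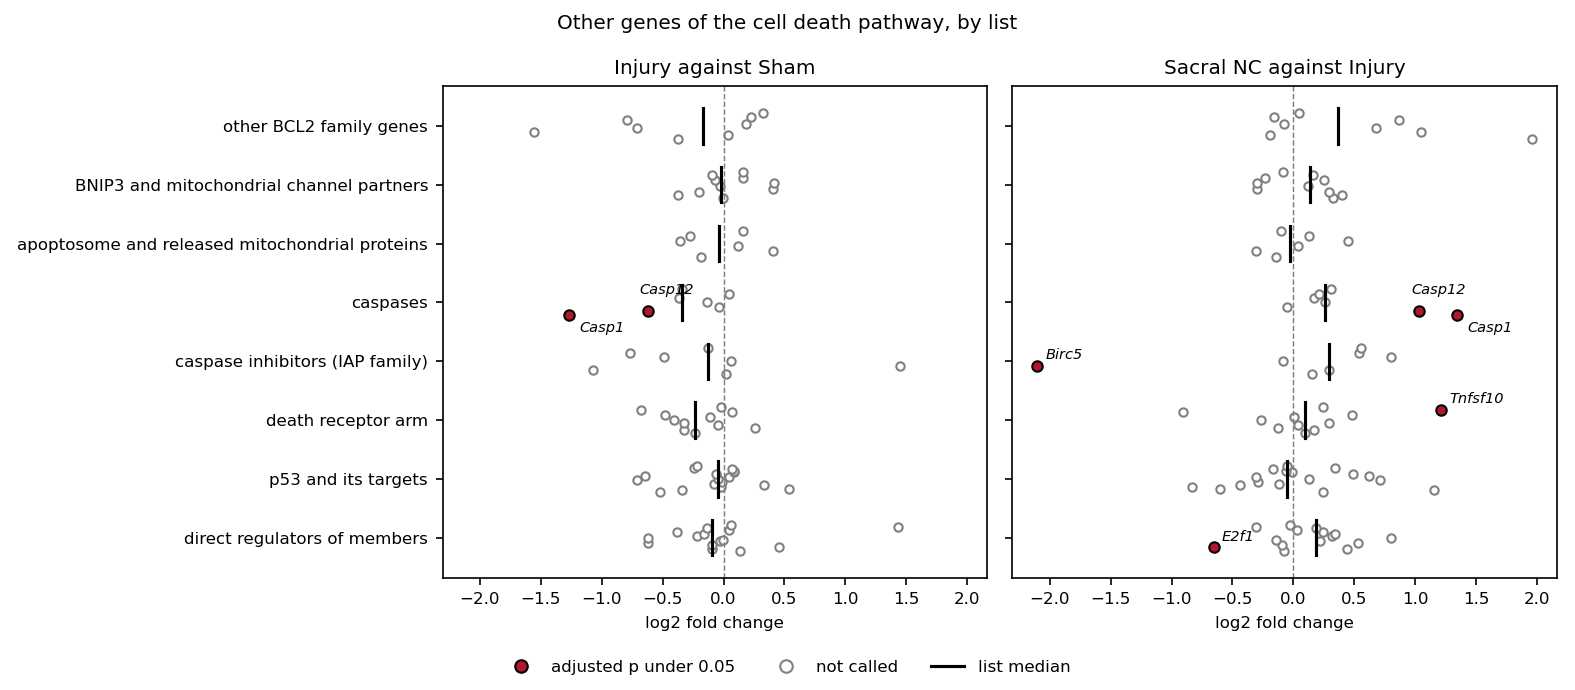
Log2 fold change of the tested genes of 8 cell death lists (rows) in Injury against Sham and in Sacral NC against Injury. Filled points have an adjusted p under 0.05 by edgeR and black ticks are list medians. Casp1 and Casp12 are the called genes in the first panel, and Casp1, Casp12, Birc5, Tnfsf10 and E2f1 in the second.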

How the data were processed

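The data are read counts of 9 libraries of rat penile tissue, 3 per group. The submitters' processing notes name HISAT2 2.0.5 and the mouse build GRCm38.p6, although all identifiers are rat; no source used here gives the counting tool, its strand setting or the rat build. The authors deposited 3 tables holding, per the file headers, raw read counts of 6 libraries, group means of these counts (a signal), a score (the test statistic), a log2 change between groups and p-values. Counts of a library in 2 tables differed in 0 values, so the tables were joined. Coordinates are those of the tables.

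Counts were tested in edgeR 4.0.16 (R 4.3.3) with TMM scaling, the default low-count filter (15509 genes kept) and the robust quasi-likelihood F-test, with a mean per group over all 9 libraries. P-values were adjusted by Benjamini-Hochberg over all tested genes and called under 0.05. Standard errors come from the F statistic, and correlations from log2 CPM with a prior count of 2. The 8 pathway lists, 10 marker lists and the members were chosen with earlier results of these data known. From each pathway list, called genes and otherwise up to 2 with the smallest p are named for a comparison; the text prints a part of these. The alternatives were DESeq2 1.42.0, RLE factors, no filter, the replicate number as a block, only the compared groups, a skeletal muscle score (mean log2 CPM of that list), leaving out libraries with over 0.1 % of reads in its genes, scaling without 44 collagen genes and each library left out. Scaling by total counts was added after seeing the data. The main edgeR fit was tested on a simulated set of counts, and the alternatives were not. Replicates of a group differed by more than sampling noise (chi-square per degree of freedom of at least 13.7).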

Additional observations from a re-analysis of the deposited data

How the results depend on the processing

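For Sacral NC against Injury, where 2 members were called, the count was 4 by DESeq2 (Bcl2l1 and Bak1 besides), 3 with total-count scaling or with scaling without collagen (Bcl2l1 besides, adjusted p = 0.0136 and 0.0496), 2 with RLE factors or unfiltered, and 0 with only the compared groups, with the muscle score, or without muscle-rich libraries, and 0 to 4 with 1 library left out. With the replicate number as a replicate block it was 0 (Pmaip1 1.46, adjusted p = 0.0803; Bcl2l11 0.96, adjusted p = 0.096). The numbers were not taken as pairs, since the labels do not say that they pair animals. Same-numbered libraries did not deviate together throughout (correlations −0.55 to 0.62). That check cannot exclude pairing, since the libraries of a group also differ in skeletal muscle reads. For Injury against Sham (0 called) it was 1 by DESeq2 (Pmaip1), 2 with only the compared groups (Pmaip1 and Bcl2l11), 3 with total-count scaling (Bcl2l1 besides), and 0 to 2 with 1 library left out, 2 without Sacral NC 2. For Sacral NC against Sham it was 0 in all settings. The cause of these moves was not tested.

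Over all genes, Sacral NC against Injury gave 1080 calls, but 2268 by DESeq2, 471 with the block, 239 with the compared groups, 459 with the muscle score, 59 without muscle-rich libraries, 3009 with total-count scaling and 285 to 3574 with 1 library left out. Injury against Sham gave 687, but 1584, 267, 1456, 461, 1, 3754 and 21 to 1329 in that order. Sacral NC against Sham gave 0, but 62 by DESeq2 and 0 to 106 with 1 library left out. Total-count scaling moved the median log2 change of all tested genes to 0.21 in Sacral NC against Injury and −0.30 in Injury against Sham. It put 84.7 % of the calls of the first higher, against 46.9 % with TMM, and 10.4 % of the second, against 69.7 %.

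Of 540 member values, 53 changed sign, 0 of them called. In Injury against Sham, Bax and Bid were 0.014 and 0.029 by DESeq2, 0.013 and 0.029 with RLE, 0.015 and 0.030 unfiltered, 0.012 and 0.027 with the compared groups, 0.053 and 0.13 with the muscle score, 0.030 and 0.056 without muscle-rich libraries, and 0.015 and 0.030 without collagen in the scaling. Without muscle-rich libraries Bcl2 was 0.18 and Bbc3 −0.023. With total-count scaling Bad was −0.21 and Bbc3 −0.063. Bcl2 in Sacral NC against Injury was −0.011 by DESeq2, −0.015 with RLE, −0.018 unfiltered, −0.0093 with the compared groups, −0.21 without muscle-rich libraries and −0.011 without collagen in the scaling. With total-count scaling Bax was 0.17 and Bad 0.037 in that comparison, and Bcl2l1 −0.0049 and Mcl1 −0.022 in Sacral NC against Sham. With 1 library left out, values in Injury against Sham ran from −0.10 to 0.091 for Bax, −0.066 to 0.056 for Bid, −0.15 to 0.11 for Bcl2 and −0.035 to 0.15 for Bad. In Sacral NC against Injury they ran from −0.13 to 0.090 for Bcl2 and −0.079 to 0.039 for Bax. In Sacral NC against Sham they ran from −0.17 to 0.12 for Bcl2, −0.066 to 0.23 for Mcl1, −0.17 to 0.13 for Bbc3, −0.12 to 0.075 for Bax, −0.016 to 0.19 for Bcl2l1, −0.17 to 0.0050 for Bak1 and −0.18 to 0.0042 for Bad.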
